A study of Mus musculus with 12 samples.

Results

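The genes described here drive and execute the cell division cycle and DNA replication, and were followed by RNA sequencing in MIN6 cells. They were taken as the rows whose gene symbol is on a list of 57 names, and all 57 were found among the 54022 genes of the deposited tables. MIN6 is an insulin-secreting insulinoma line from a mouse that carried the SV40 large T antigen under the insulin promoter. The cells were given 100 nM TMAO (trimethylamine N-oxide) or vehicle for 18 h, fasted and then stimulated with low or high glucose. The 4 groups were low glucose with vehicle, low glucose with TMAO, high glucose with vehicle and high glucose with TMAO, each with 3 libraries, and all came from the same line. The duration of the glucose stimulation is not given in the sources used here. Beyond the statement that the 3 libraries of a group are biological replicates, nothing says how the cultures were separated. The p-values therefore judge differences only against the spread between these libraries, which was estimated jointly over the 4 groups.

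In dividing cells, D-type cyclins with Cdk4 or Cdk6 and then E-type cyclins with Cdk2 inactivate the retinoblastoma protein, which frees E2F factors to switch on genes for DNA synthesis. Cdc6 and Cdt1 load the Mcm helicase onto origins, and cyclins A and B with Cdk1, the Polo and Aurora kinases and Cdc20 then carry the cell through mitosis. CDK inhibitors hold this sequence back. Large T antigen binds the retinoblastoma protein and p53. Beta cells in adult islets divide rarely, whereas MIN6 cells divide in culture.

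Library totals ranged from 16793162 to 22340542 counted fragments, and the 57 genes together took between 1.155% and 1.195% of them. All 10 beta cell markers checked, among them Ins1, Ins2, Pdx1 and Mafa, had a mean above 1 FPKM (fragments counted on a gene, scaled by its length and by the library total), with a summed level from 41420 to 49070 FPKM. Of the 4 alpha cell markers, 2 (Gcg and Ttr) were also above 1 FPKM and the summed level was 766.6 to 910.6 FPKM, from 766.6 to 860.7 in the 6 low glucose libraries and from 853.2 to 910.6 in the 6 high glucose libraries. Of the 3 immune markers, Ptprc and Adgre1 were at 0 in every library, and Cd68 lay between 2.88 and 4.1 FPKM in the 6 low glucose libraries and between 4.12 and 4.84 FPKM in the 6 high glucose libraries. The summed beta cell markers ran from 41420 to 47160 FPKM at low glucose and from 45890 to 49070 FPKM at high glucose. In the edgeR test below, averaged over both treatments, Neurod1 (1.5-fold), Mafa (1.46-fold), Slc2a2 and Iapp (1.07-fold each) were higher in high glucose. So were Gcg and Ttr (1.08-fold each), all at an adjusted p under 0.05. The other tested beta and alpha cell markers were not, among them Nkx6-1 and Irx2, which stood lower. The part of these markers and of Cd68 in the glucose differences below was not tested. The 2 duct markers were at 0 in every library, as were 3 of 4 acinar markers, and the summed fibroblast markers did not exceed 0.534 FPKM. Of the 2 delta cell markers 1 was at 0 in every library, and their sum was 0.535 to 2.11 FPKM. RNA was pooled from whole cultures, so fewer cells in a phase and less RNA of a gene per cell cannot be told apart.

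Promoters of 5 members that differed between glucose levels are printed here, to show the short sequences that mitotic and replication genes carry near their start. The windows run from 250 bases before to 50 bases after the start of the gene, in the direction of the gene, from RefSeq on GRCm38.p6. Capitals mark matches to any of 6 motifs searched on both strands. These were the cell cycle genes homology region CHR, with the letters TTTGAA and its common variant with the letters TTCGAA, the element known as the CCAAT box, and the E2F site. The E2F site was searched as TTTCGCGC and its variants TTTGGCGC and TTTCCCGC and TTTGCCGC, and the others were the full cAMP response element TGACGTCA, the E-box with the letters CACGTG and the CArG box. A match says that the letters are there and is not evidence of binding. In mitotic genes the CHR is bound by complexes with MuvB, the CCAAT box is bound by NF-Y, and E2F sites are bound by E2F factors.
Aurka, chr2:172370521-172370820, minus strand: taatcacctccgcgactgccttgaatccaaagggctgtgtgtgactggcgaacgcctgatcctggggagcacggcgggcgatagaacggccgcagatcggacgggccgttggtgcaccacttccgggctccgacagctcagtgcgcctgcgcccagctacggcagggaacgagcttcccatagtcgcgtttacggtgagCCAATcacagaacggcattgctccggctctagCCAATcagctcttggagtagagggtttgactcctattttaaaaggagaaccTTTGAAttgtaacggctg
Plk1, chr7:122159185-122159484, plus strand: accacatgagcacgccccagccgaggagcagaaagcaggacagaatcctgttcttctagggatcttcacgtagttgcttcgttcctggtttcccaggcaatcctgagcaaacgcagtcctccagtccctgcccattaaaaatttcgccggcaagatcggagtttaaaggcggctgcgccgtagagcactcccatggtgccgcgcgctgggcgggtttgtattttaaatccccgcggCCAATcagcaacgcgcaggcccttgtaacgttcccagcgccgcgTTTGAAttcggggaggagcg
Cdc20, chr4:118437294-118437593, minus strand: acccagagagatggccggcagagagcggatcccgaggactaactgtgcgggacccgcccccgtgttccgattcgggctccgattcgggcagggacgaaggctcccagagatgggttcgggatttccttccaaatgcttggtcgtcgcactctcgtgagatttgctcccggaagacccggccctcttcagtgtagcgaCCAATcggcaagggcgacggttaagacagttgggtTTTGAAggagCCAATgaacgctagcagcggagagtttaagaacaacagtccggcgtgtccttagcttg
Cdt1, chr8:122567765-122568064, plus strand: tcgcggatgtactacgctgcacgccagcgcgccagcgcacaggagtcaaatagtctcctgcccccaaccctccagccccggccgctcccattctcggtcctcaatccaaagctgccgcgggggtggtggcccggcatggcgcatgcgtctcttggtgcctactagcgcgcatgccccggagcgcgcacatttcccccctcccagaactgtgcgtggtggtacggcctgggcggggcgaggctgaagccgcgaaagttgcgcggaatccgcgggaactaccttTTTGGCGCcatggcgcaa
Plk3, chr4:117133914-117134213, minus strand: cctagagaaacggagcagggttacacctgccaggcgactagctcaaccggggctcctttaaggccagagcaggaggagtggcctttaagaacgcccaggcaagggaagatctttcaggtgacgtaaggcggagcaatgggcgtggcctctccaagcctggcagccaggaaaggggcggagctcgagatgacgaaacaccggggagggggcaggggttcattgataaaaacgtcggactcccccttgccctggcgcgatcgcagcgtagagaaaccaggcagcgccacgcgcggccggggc

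Aurka, Plk1 and Cdc20, members with mitotic roles, each held a CHR and at least 1 CCAAT. The CHR began at base 33 after the start in Aurka, at base 31 after it in Plk1 and 18 bases before it in Cdc20. Cdt1 held 1 E2F match, which began at base 33 after the start, and the window of Plk3 held none of the 6 motifs. The windows of Ccnd3 and Cdkn1a, which also differed between glucose levels, are not printed. They held no CHR and no E2F match, and of the 6 motifs only a CCAAT was found, in a window of Ccnd3. Promoter windows were found for 45 of the 57 members (50 windows). The members without an entry were Aurkb, Ccna2, Ccnd1, Ccnd2, Ccne2, Cdc25c, Cdkn1c, Foxm1, Kif20a, Mcm4, Myc and Tpx2. Of 16 windows of members with mitotic roles, 13 (81.2%) held a CHR and 15 (93.8%) a CCAAT, whereas 0 held an E2F match. Of 13 windows of members for origin licensing, the replication clamp and nucleotide supply, 6 (46.2%) held an E2F match, 2 (15.4%) a CHR and 9 (69.2%) a CCAAT. Over all 32851 RefSeq windows, 19.2% held a CHR, 37.4% a CCAAT, 2.26% an E2F match, 1.79% the full cAMP response element, 7.15% the E-box and 1.63% a CArG box. The last 3 motifs were in 6%, 10% and 2% of the 50 windows of members.

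The 57 genes covered a wide range of levels, and most were well above the level of single reads. Mean levels over the 12 libraries exceeded 10 FPKM for 46 members and 100 FPKM for 7, while 8 members were below 1.5 FPKM. FPKM is scaled by gene length, so the levels given here can be compared between genes, though only roughly. Exons of 19 of the 57 members overlap a gene on the opposite strand, and the strand setting of the counting is not given. Between replicates the spread was small: edgeR's biological coefficient of variation had a median of 4.4% over the tested members, from 3.85% to 27.9%, against a median of 5.98% over all tested genes.

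**Figure D1:**
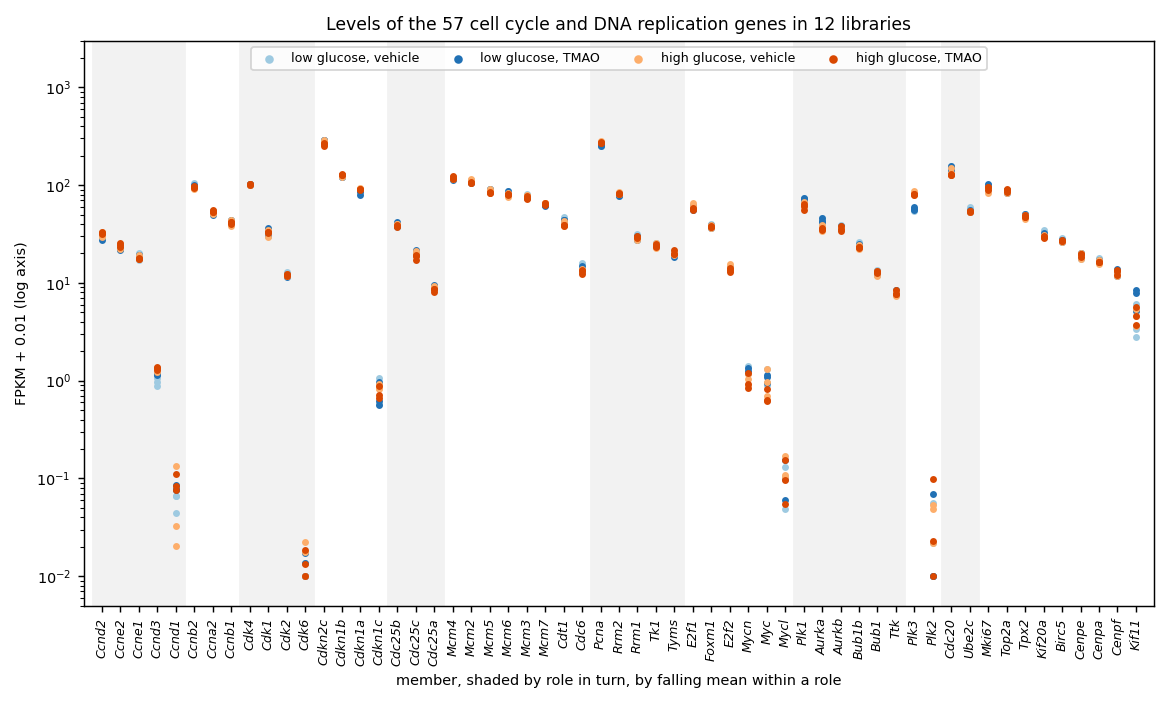
Level of each of the 57 genes in each of the 12 libraries, as FPKM + 0.01 on a log axis, with genes grouped by role and ordered by mean level within it. The points of most genes overlie each other in all 4 groups, while Ccnd1, Cdk6 and Plk2 lie near the bottom and Kif11, Myc, Mycn, Mycl and Cdkn1c spread most among the tested genes.

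Among the cyclins of G1, Ccnd2 (cyclin D2) was the D-type cyclin with the highest level, from 27.7 to 33.4 FPKM over the 12 libraries. Ccnd3 (cyclin D3) lay between 0.87 and 1.38 FPKM, and Ccnd1 (cyclin D1) had 1 to 10 counts per library. The E-type cyclins Ccne2 and Ccne1, partners of Cdk2, had means of 23.5 and 18.5 FPKM. Cdk4 was the most abundant kinase of its role at 100 to 104 FPKM, followed by Cdk1 at 29.3 to 36.6 FPKM and Cdk2 at 11.4 to 12.8 FPKM, whereas Cdk6 had at most 3 counts in a library.

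Of the CDK inhibitors, Cdkn2c (p18, an inhibitor of Cdk4 and Cdk6) was the most abundant of all 57 genes with a mean of 275 FPKM and a range of 253 to 292 FPKM. Cdkn1b (p27) followed at 120 to 129 FPKM and Cdkn1a (p21, a p53 target) at 79.9 to 94.5 FPKM. Cdkn1c (p57) was near the lower end, between 0.553 and 1.05 FPKM with 22 to 40 counts per library. The CDC25 phosphatases, which remove the inhibitory phosphates from CDKs, had means of 39.2 (Cdc25b), 19.6 (Cdc25c) and 8.92 FPKM (Cdc25a).

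The replication genes were high throughout. Pcna, the sliding clamp of the replication fork, lay between 254 and 282 FPKM, and Rrm2, the regulated subunit of ribonucleotide reductase, between 77.1 and 84.5 FPKM. Of the helicase subunits, Mcm4 (mean 118 FPKM) and Mcm2 (109 FPKM) had the highest levels and Mcm7 (63.7 FPKM) the lowest. The licensing factors Cdt1 and Cdc6 were lower, with means of 42.1 and 13.9 FPKM. Among the transcription factors, E2f1 (59.4 FPKM) and Foxm1 (38 FPKM), a driver of mitotic genes, stood above E2f2 (14 FPKM). The Myc family was low: Mycn averaged 1.15 FPKM, Myc 0.94 FPKM and Mycl 0.0965 FPKM, the last with 3 to 13 counts per library.

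Mitotic genes were also abundant. Cdc20, which activates the anaphase-promoting complex, averaged 141 FPKM and Ube2c, an enzyme that works with that complex, 54.6 FPKM. Ccnb2 averaged 96.9 FPKM and Ccna2 52.9 FPKM among the cyclins of S phase and mitosis. The proliferation antigen Mki67 averaged 94.6 FPKM and topoisomerase Top2a 87.6 FPKM, the highest of the chromosome and spindle proteins. Plk1 (66.8 FPKM) and Aurka (39.8 FPKM) led the mitotic kinases and checkpoint proteins. Of the stress-induced Polo-like kinases, Plk3 averaged 69.2 FPKM, whereas Plk2 had 0 to 9 counts per library.

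Ccnd1, Cdk6 and Plk2 did not pass the filter on low counts, which left 54 members among 16222 tested genes. Differences were tested with edgeR's quasi-likelihood test on counts, and a gene was called at a Benjamini-Hochberg adjusted p under 0.05 over all tested genes. All log2 fold changes below are from this fit and are given ± their standard error.

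The first question was which of these genes differed between low and high glucose. In vehicle-treated cells, 4 of 54 members were called, with a background of 3.3% of all tested genes: Plk3 and Ccnd3 were higher in high glucose, and Aurka and Plk1 were lower. Without vehicle replicate 2 at low glucose or vehicle replicate 3 at high glucose, 2 were called, Plk3 and Aurka. In TMAO-treated cells, which are other libraries, 4 members were again called against a background of 3.64%: Plk3 was higher, and Aurka, Plk1 and Cdc20 were lower. When the glucose difference was averaged over both treatments, 8 of 54 members (14.8%) were called against 8.19% of all tested genes. Plk3, Ccnd3 and Cdkn1a were higher, and Aurka, Plk1, Cdc20, Cdt1 and Kif20a lower. This average uses the same libraries as both comparisons above it and adds no independent evidence. The differences were moderate: in this average Plk3 was 1.45-fold higher and Ccnd3 1.24-fold higher, and Aurka stood at 0.82 of its low glucose level, the largest fall of the 5.

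Plk3 (ENSMUSG00000028680, chr4:117128655-117133963), a Polo-like kinase induced by mitogens and stress, changed most among the called members. At low glucose it stood at 57.1, 55.1 and 54.2 FPKM with vehicle and at 56.1, 56.4 and 59.9 FPKM with TMAO. At high glucose it stood at 82.5, 79.3 and 86.7 FPKM with vehicle and at 81.7, 81.3 and 80.2 FPKM with TMAO. The 6 high glucose libraries all lay above the 6 low glucose libraries, and the treatments overlapped at each glucose level. The log2 fold change was 0.58 ± 0.05 with vehicle (1.5-fold, adjusted p = 9.77e-11) and 0.50 ± 0.05 with TMAO (1.41-fold, adjusted p = 2.84e-09).

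Ccnd3 (ENSMUSG00000034165, chr17:47505051-47599691) was the cyclin that was called. With vehicle it was 1.05, 0.87 and 0.965 FPKM at low glucose and 1.31, 1.22 and 1.31 FPKM at high glucose. With TMAO it was 1.17, 1.14 and 1.156 FPKM at low glucose and 1.38, 1.34 and 1.26 FPKM at high glucose. High glucose libraries lay above all low glucose libraries, with the low glucose TMAO libraries between the vehicle libraries of both glucose levels. The log2 fold change was 0.41 ± 0.10 with vehicle (adjusted p = 0.0166) and 0.31 ± 0.07 averaged over both treatments (adjusted p = 0.00438). The difference in TMAO-treated cells alone was 0.21 ± 0.10 and not called (adjusted p = 0.339). The vehicle call was lost without vehicle replicate 2 or 3 at low glucose (adjusted p = 0.154 and 0.0554) and without vehicle replicate 1 or 3 at high glucose (adjusted p = 0.0676 and 0.0843). On the opposite strand, Bysl overlaps 4.11% of the exon bases of Ccnd3 and had 326% of its counts, with a log2 difference of -0.16 ± 0.08 with vehicle (adjusted p = 0.374). The strand setting of the counting is not given in the sources used here.

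Cdkn1a (ENSMUSG00000023067, chr17:29090979-29100722), the inhibitor p21, was called in the average over both treatments. Its levels at low glucose were 83.2, 84.6 and 85.1 FPKM with vehicle and 87, 79.9 and 87.5 FPKM with TMAO. At high glucose they were 94.5, 90.9 and 90.8 FPKM with vehicle and 92.2, 92 and 88.2 FPKM with TMAO. The glucose levels did not overlap, but their closest libraries were 87.5 and 88.2 FPKM. The difference was 0.11 ± 0.03 on the log2 scale (adjusted p = 0.0205), and in vehicle-treated cells alone it was 0.13 ± 0.05 and not called (adjusted p = 0.142). It was no longer called without vehicle replicate 2 at low glucose (adjusted p = 0.053), TMAO replicate 2 at low glucose (0.0639) or TMAO replicate 2 at high glucose (0.063). The other CDK inhibitors Cdkn1b, Cdkn1c and Cdkn2c were not called.

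Aurka (ENSMUSG00000027496, chr2:172356190-172370535), a kinase of centrosomes and spindle assembly, fell in both treatments. With vehicle it was 46.5, 42.8 and 42.6 FPKM at low glucose and 38.8, 35.6 and 34.3 FPKM at high glucose. With TMAO it was 46.2, 41.6 and 43.1 FPKM at low glucose and 35.7, 36.1 and 34.6 FPKM at high glucose. All 6 high glucose libraries were below the 6 low glucose libraries. In high against low glucose, the log2 fold change was -0.28 ± 0.05 with vehicle (adjusted p = 0.00157) and -0.30 ± 0.05 with TMAO (adjusted p = 0.000608). Aurkb, the kinase of the chromosomal passenger complex, ranged from 33.9 to 38.9 FPKM and was not called.

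Plk1 (ENSMUSG00000030867, chr7:122159439-122169873), the Polo-like kinase of mitotic entry and exit, was called in both treatments as well. With vehicle it was 74.6, 72.6 and 69.3 FPKM at low glucose and 67.5, 61.1 and 60.7 FPKM at high glucose. With TMAO it was 74.1, 69 and 72.9 FPKM at low glucose and 63.8, 60.6 and 55.7 FPKM at high glucose. The glucose levels did not overlap. The log2 fold change was -0.19 ± 0.05 with vehicle (adjusted p = 0.0391) and -0.26 ± 0.05 with TMAO (adjusted p = 0.00258). The vehicle call did not hold without vehicle replicate 1 or 2 at low glucose (adjusted p = 0.192 and 0.145) or without vehicle replicate 2 or 3 at high glucose (adjusted p = 0.171 and 0.242), whereas the call with TMAO held without any 1 library.

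Cdc20 (ENSMUSG00000006398, chr4:118432901-118437352) was called in TMAO-treated cells and in the average. With TMAO it was 158, 143 and 151 FPKM at low glucose and 130, 127 and 126 FPKM at high glucose, with no overlap. With vehicle it was 158, 147 and 144 FPKM at low glucose and 149, 134 and 127 FPKM at high glucose, and replicate 1 at high glucose lay within the low glucose range. The log2 fold change was -0.23 ± 0.05 with TMAO (adjusted p = 0.00588) and -0.18 ± 0.04 in the average (adjusted p = 0.0011). The TMAO call was lost without TMAO replicate 1 at low glucose (adjusted p = 0.0568). With vehicle the difference was -0.13 ± 0.05 and not called (adjusted p = 0.246), and it was called without replicate 1 at high glucose (adjusted p = 0.0269).

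Cdt1 (ENSMUSG00000006585, chr8:122568015-122573554) was the licensing factor that was called. It was 47.7, 43.5 and 44.5 FPKM with vehicle and 44, 43.6 and 43.5 FPKM with TMAO at low glucose. At high glucose it was 43, 38.4 and 39.6 FPKM with vehicle and 38.1, 39.4 and 39.6 FPKM with TMAO. The glucose levels did not overlap, although vehicle replicate 1 at high glucose lay just under the low glucose range. High against low glucose, the log2 fold change was -0.16 ± 0.03 in the average (adjusted p = 0.0019). Within the treatments Cdt1 differed by -0.16 ± 0.05 in each and was not called (adjusted p = 0.0661 with vehicle and 0.0632 with TMAO). With vehicle it was called without vehicle replicate 1 at high glucose (adjusted p = 0.0152) and with no filter on low counts (adjusted p = 0.0472). With the replicate number as a block in the edgeR model it was called in both treatments (adjusted p = 0.0277 with vehicle and 0.0273 with TMAO).

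Kif20a (ENSMUSG00000003779, chr18:34624624-34633265), a kinesin of the central spindle in cytokinesis, was also called in the average. At low glucose it was 33.2, 34.5 and 32.6 FPKM with vehicle and 32.5, 31.1 and 30.6 FPKM with TMAO. At high glucose it was 31.2, 29.7 and 29.5 FPKM with vehicle and 29.8, 30.2 and 28.7 FPKM with TMAO. The glucose levels were separate within each treatment but overlapped over both, and at low glucose all TMAO libraries lay below the vehicle libraries. In the average it was lower by a log2 fold change of -0.12 ± 0.03 (adjusted p = 0.026), and with vehicle alone of -0.15 ± 0.05 without being called (adjusted p = 0.0965). With the replicate number as a block in the edgeR model it was called with vehicle too (adjusted p = 0.0401). The call in the average was lost without vehicle replicate 2 or TMAO replicate 1 at low glucose (adjusted p = 0.0868 and 0.0817), and without vehicle replicate 2, vehicle replicate 3 or TMAO replicate 3 at high glucose (adjusted p = 0.0637, 0.0766 and 0.0843). Cdc23 on the opposite strand overlaps 29.3% of its exon bases and had 64.1% of its counts, with a log2 difference of -0.02 ± 0.04 in the same comparison (adjusted p = 0.797).

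**Figure D2:**
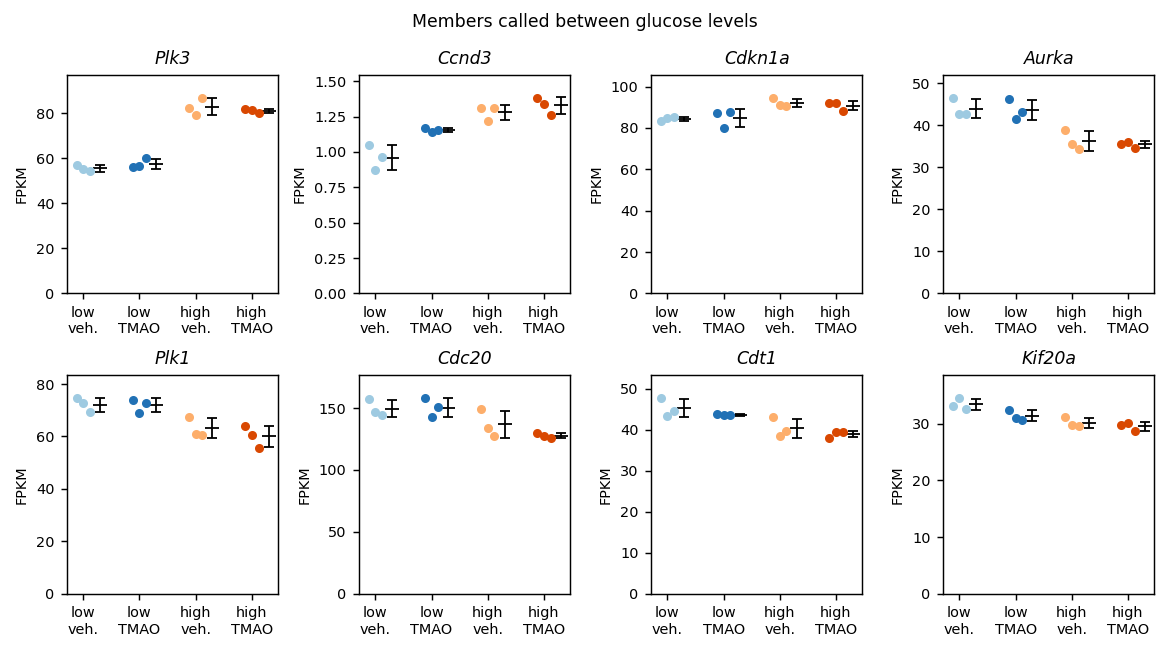
FPKM of the 8 members called between glucose levels, with 1 point per library in each group and the mean ± SD of 3 libraries as a black bar beside the points. Plk3, Ccnd3 and Cdkn1a lie higher at high glucose, and Aurka, Plk1, Cdc20, Cdt1 and Kif20a lie lower, with the TMAO and vehicle libraries close together at each glucose level except for Ccnd3 and Kif20a at low glucose.

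Over all 12 libraries, 6 members had no overlap between the 6 low and 6 high glucose libraries (11.1% of 54, against 5.01% of all tested genes): Plk3, Ccnd3 and Cdkn1a upward, and Aurka, Plk1 and Cdt1 downward. Within vehicle-treated cells, 12 members (22.2%) did not overlap, 5 of them higher and 7 lower in high glucose, near the background of 18.9%. Within TMAO-treated cells, 18 members (33.3%) did not overlap, 6 higher and 12 lower, against a background of 18.6%.

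By role, 16 of 20 members with mitotic roles had log2 fold changes below 0 in high against low glucose in the average over both treatments (median -0.05), and 4 of them were called. These 20 genes are the cyclins of S phase and mitosis, the mitotic kinases and checkpoint proteins, Cdc20 and Ube2c, and the chromosome and spindle proteins. With vehicle, 19 of the 20 log2 fold changes were below 0 (median -0.06) and 2 were called. With TMAO, 13 of 20 were below 0 (median -0.03) and 3 were called. Whether these tallies differ between the treatments was not tested, and the interaction of glucose and TMAO was called for 0 of the 20. When 1 library was left out, the number below 0 ran from 15 to 20 with vehicle, from 10 to 15 with TMAO and from 14 to 20 in the average. The 15 with vehicle came without vehicle replicate 1 at high glucose, in which 14 of the 20 genes lay below their group mean, among them Ccnb1 by a log2 deviation of -0.13 and Cenpe and Mki67 by -0.11 each. With 1 library left out, the median ran from -0.0909 to -0.0546 with vehicle and from -0.0427 to -0.00909 with TMAO. In the average it ran from -0.065 to -0.0438. Over all tested genes the medians with all 12 libraries were close to 0, with 7992 of 16222 below 0 with vehicle and 8040 with TMAO. Of all tested genes, 8.19% were called in the average, 3.3% with vehicle and 3.64% with TMAO. In a list of 33 other spindle, kinetochore and cytokinesis genes, 27 were below 0 with vehicle (median -0.06, 2 called) and 16 with TMAO (median 0.01, 0 called). Of the 20 members, Ccnb1, Ccnb2, Ccna2, Bub1, Bub1b, Ttk, Aurkb, Ube2c, Birc5, Cenpa, Cenpe, Cenpf, Tpx2, Top2a, Mki67 and Kif11 were not called in any comparison. In TMAO-treated cells Kif11 had the largest glucose difference of all 54 members on the log2 scale, -0.63 ± 0.32 (adjusted p = 0.435), with a wide spread between replicates.

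The 13 members for origin licensing, the clamp and nucleotide supply had 9 of 13 log2 fold changes below 0 with vehicle (median -0.02) and 7 of 13 with TMAO (median -0.01), with 0 called in either. In the average 8 of 13 were below 0 (median -0.02) and 1, Cdt1, was called, with a background of 8.19% of all tested genes. When 1 library was left out, the number below 0 ran from 8 to 9 with vehicle, from 6 to 7 with TMAO and from 6 to 9 in the average. The median was then -0.0268 to -0.00483 with vehicle, closest to 0 without replicate 1 at low glucose and next without replicate 1 at high glucose (-0.00629). With TMAO it was -0.0143 to 0.026 and lay above 0 without replicate 1 at low glucose or replicate 2 at high glucose (0.0063). In the average it was -0.0263 to 0.0037 and lay above 0 without vehicle replicate 1 at low glucose. The direction of these medians therefore rested on single libraries with TMAO and in the average. Whether the roles differ was not tested. Pcna was higher by 0.08 ± 0.03 on the log2 scale in the average over both treatments without being called (adjusted p = 0.0892). It was called without TMAO replicate 1 at low glucose (adjusted p = 0.04) and with the replicate number as a block (adjusted p = 0.0398). The helicase subunits Mcm2 to Mcm7 were not called. Of the transcription factors none was called, and the lowest adjusted p among them in the average belonged to Mycn, with a log2 difference of -0.35 ± 0.12 (adjusted p = 0.0741). Mycn stood at 1.37, 1.19 and 1.4 FPKM with vehicle and 1.34, 1.24 and 1.2 FPKM with TMAO at low glucose, and at 1.04, 0.893 and 1.17 FPKM and 0.83, 1.19 and 0.922 FPKM at high glucose. Its groups overlapped over both treatments, since the highest high glucose library reached the low glucose range. Without that library, TMAO replicate 2, Mycn was called in the average (adjusted p = 0.0317). The 3 tested kinases Cdk1, Cdk2 and Cdk4 and the 3 CDC25 phosphatases were not called.

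**Figure D3:**
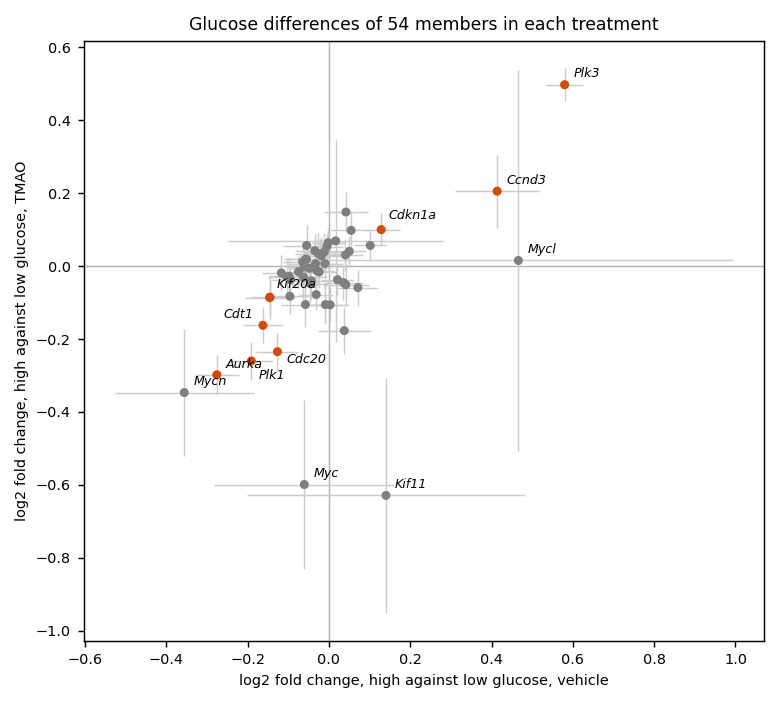
Log2 fold change of high against low glucose for the 54 tested members, with vehicle on the horizontal axis and with TMAO on the vertical axis, and bars of 1 standard error. Orange points are the 8 called members, which lie in the same direction in both treatments. Most grey points lie near 0, and Kif11, Myc and Mycl have long bars.

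The second question was whether TMAO changed these genes. In high glucose, 0 of 54 members were called by edgeR's quasi-likelihood test, with a background of 0%, and DESeq2's Wald test also called 0 of them, with 3 of all genes. At an unadjusted p under 0.05, 2 members (3.7%) differed, against 868 of all 16222 genes (5.35%). E2f1, a factor for S phase genes, was 66.1, 59.4 and 61.6 FPKM with vehicle and 55.1, 57.8 and 57 FPKM with TMAO, and did not overlap. The same held for Mcm5, Cdc25a and Cdc25b, all lower with TMAO, which makes 4 of 54 members (7.41%) against a background of 11.2% of all tested genes. Its log2 difference was -0.14 ± 0.05 (unadjusted p = 0.00863, adjusted p = 0.91). Myc was 1.32, 0.956 and 0.69 FPKM with vehicle and 0.613, 0.821 and 0.623 FPKM with TMAO, which overlapped, and differed by -0.51 ± 0.24 (adjusted p = 0.91). Myc had 28 to 68 counts per library over the 12 libraries.

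In low glucose, edgeR and DESeq2 again called 0 of 54 members, and edgeR called 1 of 16222 genes (0.00616%). At an unadjusted p under 0.05, 2 members and 357 of all genes differed. Ccnd3, listed above, was higher with TMAO by 0.27 ± 0.10 on the log2 scale (adjusted p = 1) and its groups did not overlap. In all 5 members (9.26%) did not overlap in low glucose, Ccnd3 and Cdc25c higher and Mcm4, Kif20a and Ccne2 lower with TMAO, against a background of 6.34%. The other member under 0.05 was Kif11, a motor that separates the spindle poles, with a log2 difference of 0.81 ± 0.33 (adjusted p = 1). Averaged over both glucose levels, edgeR and DESeq2 called 0 of 54 members (background 0% with edgeR and 2 genes with DESeq2), with 2 members (Ccnd3 and E2f1) and 588 of all genes at an unadjusted p under 0.05. For the interaction of glucose and TMAO they called 0 members as well (background 0% with edgeR and 1 gene with DESeq2), with 1 member, Cdc25c, and 545 of all genes at an unadjusted p under 0.05. The glucose difference of Cdc25c was 0.04 ± 0.06 with vehicle and -0.18 ± 0.06 with TMAO, and the difference of these was -0.21 ± 0.09 (adjusted p = 1).

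By direction alone, 41 of the 54 log2 differences between TMAO and vehicle were below 0 in low glucose (median -0.02), 31 in high glucose (median -0.01) and 42 in the average over both glucose levels (median -0.01). Over all 16222 tested genes 8005, 8086 and 8107 were below 0. Of the 20 members with mitotic roles, 18 were below 0 in low glucose (median -0.03) and 7 in high glucose (median 0.02). Of the 13 members for origin licensing, the clamp and nucleotide supply, 12 were below 0 in low glucose (median -0.04) and 10 in high glucose (median -0.03). Of the 33 other spindle, kinetochore and cytokinesis genes, 29 were below 0 in low glucose and 13 in high glucose. The low glucose libraries are also those of the glucose differences above, so these tallies and the ones by glucose are not independent. When 1 library was left out, the mitotic tally ran from 14 to 17 in low glucose and from 7 to 12 in high glucose, the 12 without vehicle replicate 1, and the replication tally from 9 to 13 and from 8 to 10. The mitotic median then ran from -0.0582 to -0.0161 in low glucose and from -0.00646 to 0.034 in high glucose. The replication median ran from -0.0491 to -0.01 and from -0.0435 to -0.02. Members are not replicates, and these tallies were not tested.

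The precision of the TMAO comparisons differed between genes. The 95% interval of the fold change lay within 1.2-fold in either direction for 49 of 54 members in high glucose and for 48 in low glucose. The members with wider intervals were Kif11, Myc, Mycn, Mycl and Cdkn1c at both glucose levels and Ccnd3 in low glucose. For Cdk4, Pcna, Mki67 and the Mcm genes a TMAO difference above 1.2-fold was therefore outside the interval, whereas for Myc in high glucose the interval ran from -0.99 to -0.03 on the log2 scale. The interval for Mycl in high glucose ran from -1.31 to 0.79.

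**Figure D4:**
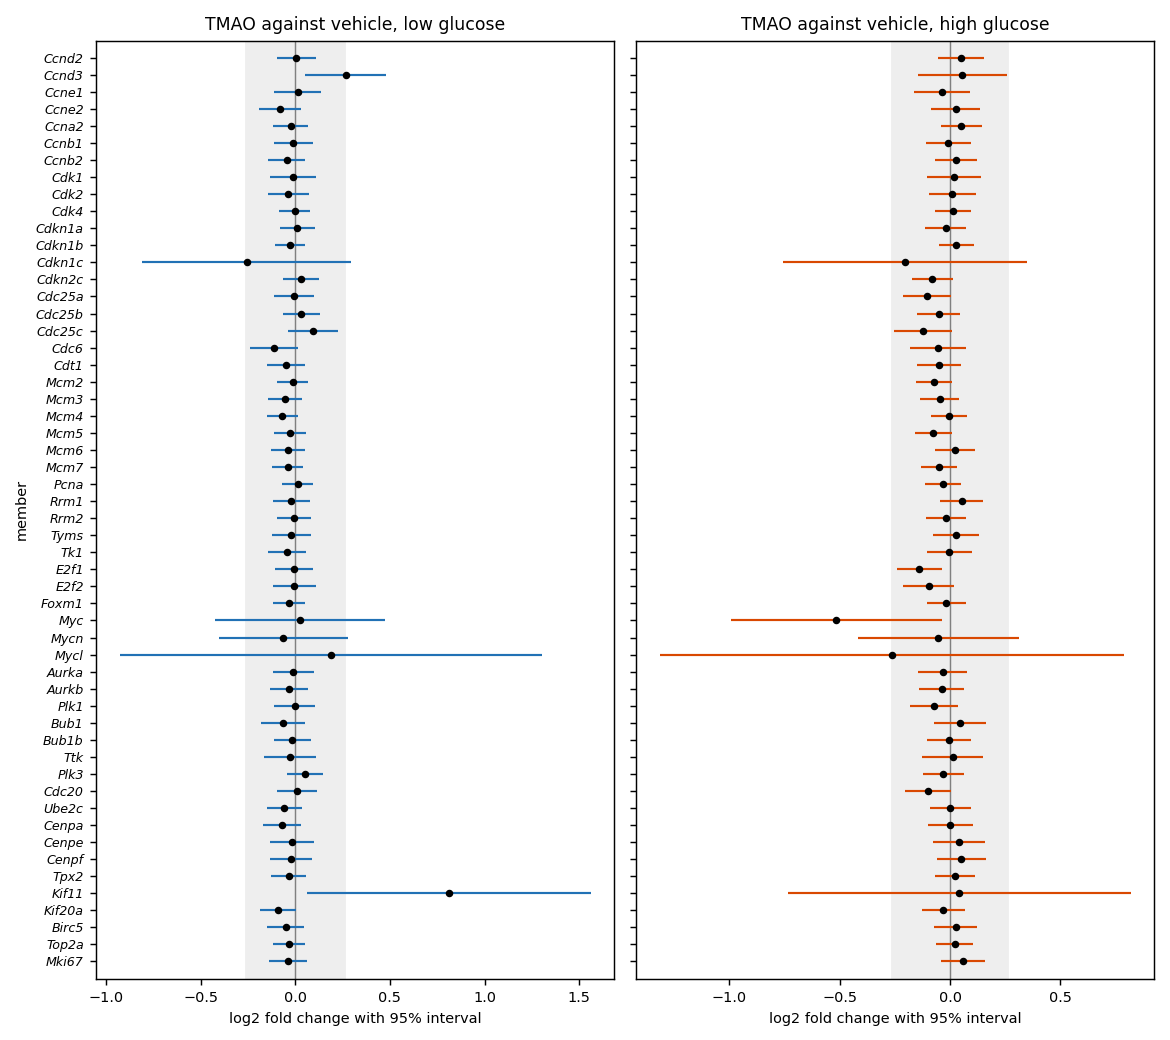
Log2 fold change of TMAO against vehicle for the 54 tested members in low glucose (left) and high glucose (right), as points with 95% intervals, and the grey band marks 1.2-fold in either direction. In low glucose 48 intervals and in high glucose 49 intervals lie inside the band, and the longest belong to Kif11, Mycl, Myc, Mycn and Cdkn1c.

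Kif11 was the least reproducible member, with a biological coefficient of variation of 27.9%. With vehicle it was 3.38, 2.76 and 6.13 FPKM at low glucose and 4.58, 3.57 and 5.39 FPKM at high glucose. With TMAO it was 7.87, 8.45 and 5.14 FPKM at low glucose and 3.66, 4.57 and 5.65 FPKM at high glucose. The counts behind these levels were 254 to 795 per library. The groups overlapped, and TMAO replicates 1 and 2 at low glucose stood above every other library. Other members of the same role, such as Cenpe at 17.4 to 20.3 FPKM and Tpx2 at 44.9 to 51 FPKM, did not vary in this way.

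Some members followed the replicate number in every group. Mki67, Cenpf and Cenpe, which are long transcripts with a median of 10060 bases, were lowest in replicate 1 of all 4 groups (5.56% of members, against 3.31% of all tested genes). Mcm5, Cdc20, Foxm1, Plk1 and Ccnd3 were highest in replicate 1 of all 4 groups (9.26% against 3.13%). Cenpe and Birc5 were highest in replicate 2 of all groups (3.7% against 1.63%), and 0 members were lowest in it (against 1.49%). Foxm1 and Kif20a were lowest in replicate 3 of all groups (3.7% against 1.95%), and E2f2 was highest in it (1.85% against 1.89%). Mki67 was 93.6, 100 and 101 FPKM at low glucose with vehicle and 92.3, 102 and 92.8 FPKM with TMAO, and 83.6, 94.3 and 93.4 FPKM and 89.9, 96.6 and 96.3 FPKM at high glucose. In replicate 1 Mki67 was 83.6 to 93.6 FPKM, below the other replicates of each group. Each replicate number occurs once in every group.

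Other genes of the cell cycle were counted from a list of 185, of which 183 were tested. With vehicle, 9 were called (4.92%, 5 higher and 4 lower in high glucose), and with TMAO 8 (4.37%, 5 higher and 3 lower). In the average over both treatments, 18 were called (9.84%), 9 in each direction, close to the background of 8.19% given above. The largest rises were of 2 p53-responsive genes that restrain the cycle. Gadd45a, which acts at the G2 checkpoint, rose from a mean of 45.7 to 85.6 FPKM, with a log2 fold change of 0.91 ± 0.04 (adjusted p = 8.66e-17). Btg2, an antiproliferative gene induced by many stimuli, rose from 10.7 to 19.2 FPKM, by 0.83 ± 0.04 (adjusted p = 2.79e-15). A further p53 target, Sesn1, fell by 0.26 ± 0.05 on the log2 scale (adjusted p = 0.000306).

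In DNA replication, Orc1, a subunit of the origin recognition complex, rose by 0.44 ± 0.08 (adjusted p = 0.000324), whereas Gins3, a subunit of the helicase complex, fell by 0.33 ± 0.06 (adjusted p = 0.000255). The chromatin assembly factor Chaf1b rose by 0.15 ± 0.03 and the condensin subunit Ncapd3 by 0.12 ± 0.03 (adjusted p = 0.00099 and 0.012), the latter not without vehicle replicate 3 at high glucose (adjusted p = 0.0689). Among regulators of mitosis, Fbxo5, an inhibitor of the anaphase-promoting complex, fell by 0.23 ± 0.03 (adjusted p = 1.2e-05), Gtse1 by 0.22 ± 0.05 (0.00201) and the spindle protein Aspm by 0.17 ± 0.04 (0.0108). Aspm was not called with limma on log2(FPKM + 1) or log2(FPKM + 0.1) (adjusted p = 0.0716 and 0.0711). The MuvB subunit Lin37 fell by 0.23 ± 0.06 (adjusted p = 0.0147), a call lost without TMAO replicate 3 at high glucose (0.0526).

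The transcription cyclins Ccnt1 and Ccnl1 rose by 0.17 ± 0.04 and 0.24 ± 0.05 (adjusted p = 0.00141 and 0.00456), and the Myc antagonist Mnt rose by 0.16 ± 0.04 (0.00377). The difference of Mnt in vehicle-treated cells, 0.22 ± 0.05 (adjusted p = 0.0072), was not called without vehicle replicate 2 at low glucose or vehicle replicate 1 at high glucose (0.0634 and 0.0772). Ckap2l, a spindle protein, was called with vehicle and not in the average. It fell by 0.18 ± 0.05 (adjusted p = 0.0345), which did not hold without vehicle replicate 1 or 2 at low glucose (0.128 and 0.167) or vehicle replicate 1 or 3 at high glucose (0.157 and 0.15). The 4 other called genes, Stil, Pold3, Cks2 and Cdkn2b, differed by at most 0.18 on the log2 scale in the average. In the TMAO comparisons at high and low glucose, edgeR and DESeq2 called 0 of these 183 genes. At an unadjusted p under 0.05 in edgeR there were 12 (6.56%) in high glucose, against 5.35% of all tested genes. In low glucose there were 0, against 2.2% of all tested genes.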

How the data were processed

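Total RNA of 12 MIN6 cultures in 4 groups of 3 was sequenced as poly(A)-selected paired-end libraries. The cells had 100 nM TMAO or vehicle for 18 h and then 2.8 or 16.8 mM glucose. The authors deposited fragment counts per gene without normalization, and FPKM values, which are counts scaled by gene length and library total. The submitters' processing notes name HISAT2 2.0.5, featureCounts 1.5.0-p3, DESeq2 1.16.1 and the build mm10; the strand setting of the counting is not given in the sources used here, and exons of 19 of the 57 members overlap a gene on the opposite strand (GENCODE M21). Per the labels, each column was assigned to its sample by name.

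Counts were tested in R 4.3.3 with edgeR 4.0.16: genes were kept by filterByExpr, libraries were scaled by TMM, and a robust quasi-likelihood model with 1 mean per group was fitted to the 12 libraries. P-values were adjusted over all 16222 tested genes by Benjamini-Hochberg, and genes were called under 0.05. Totals were 16793162 to 22340542, so 3 counts are 1.79e-05% of the smallest library, which covers counting error only. Rows that name no gene symbol (557 rows, at most 0.35% of the counts) were kept. Fold changes are on the count scale of the fit, and levels are FPKM.

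The members and lists were chosen with earlier results of these data known. All 57 members were accounted for by role; those called in any comparison are given in every library, of the rest the 2 with the highest mean FPKM per role and any with an unadjusted p under 0.01 are named with values. Of the 185 other cell cycle genes, at most 15 called ones are named by lowest p. The remaining genes named with values, such as Kif11, Myc, Cdc25c and those that followed the replicate number, were chosen after their values were seen, and so were Bysl and Cdc23.

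Over the 18 pairs of same-numbered libraries of different groups, the correlation of deviations from group means ran from -0.0377 to 0.213, with 2 above 0.1 (replicates 1 and 3 of both low glucose groups). Over the 36 pairs with different numbers it ran from -0.186 to 0.0862. Since not every same-numbered pair was above 0.1, the number was not treated as a pairing. The alternatives were edgeR with size factors from DESeq2, DESeq2 1.42.0 with its own Wald test, the filter removed or set to a minimum of 10 counts throughout, fits restricted to the libraries compared, a replicate block, limma 3.58.1 on the log2 scale with 1 or with 0.1 added to FPKM (which understates changes of low genes), and each library left out. Leaving out libraries for the tallies of members below 0 by role was added after the data were seen. Steps were tested on simulated counts. Motifs were searched in Python 3.11.15 with pandas 2.3.3 and figures drawn with matplotlib 3.10.9.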

Additional observations from a re-analysis of the deposited data

How the results depend on the processing

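The number of members called between glucose levels in vehicle-treated cells, 4 with edgeR, was 2 (Plk3 and Aurka) with limma on log2(FPKM + 1) and 2 with limma on log2(FPKM + 0.1). When 1 library was left out it ran from 2 to 5, with 2 without vehicle replicate 2 at low glucose and 2 without vehicle replicate 3 at high glucose. In TMAO-treated cells the count, 4, ran from 3 to 4 and in the average, 8, from 6 to 9 when 1 library was left out. The TMAO comparisons and the interaction gave 0 called members under every alternative run. Plk3 and Aurka were called between glucose levels under all alternatives, and Plk1, Cdc20, Cdt1 and Ccnd3 under all 19 alternatives of the average over treatments. Of the log2 fold changes of called members, of members that some alternative called and of other called cell cycle genes, 0 changed sign where they were recomputed, which left out Stil, Pold3, Cks2 and Cdkn2b. With the replicate number as a replicate block, 6, 5 and 9 members were called between glucose levels (vehicle, TMAO, average) and 0 in each TMAO comparison and the interaction. The calls that the replicate block added were Cdt1 (adjusted p = 0.0277) and Kif20a (0.0401) with vehicle, Cdt1 with TMAO (0.0273) and Pcna in the average (0.0398). Other calls were gained for Cdt1 with vehicle without the filter on low counts (0.0472), for Cdt1 and Cdc20 with vehicle without vehicle replicate 1 at high glucose (0.0152 and 0.0269), and in the average for Ccne2 without that library (0.0313), Cdc6 without vehicle replicate 1 at low glucose (0.0228), Pcna without TMAO replicate 1 at low glucose (0.04) and Mycn without TMAO replicate 2 at high glucose (0.0317). Cdc20 with TMAO was not called with limma on log2(FPKM + 1) or log2(FPKM + 0.1) (adjusted p = 0.0627 and 0.0621), and the same held with vehicle for Ccnd3 (0.0978 and 0.113), Plk1 (0.127 and 0.126), Mnt (0.069 and 0.0674) and Ckap2l (0.0654 and 0.0656). For these lost calls the cause was not tested. The 95% intervals of the TMAO differences reached beyond 1.2-fold for Kif11, Myc, Mycn, Mycl and Cdkn1c at both glucose levels and for Ccnd3 in low glucose. Low counts go with these wide intervals for Mycl (3 to 13 per library), Cdkn1c (22 to 40) and Myc (28 to 68), but Kif11 had 254 to 795 counts and a biological coefficient of variation of 27.9%. Ccnd1, Cdk6 and Plk2 were not tested.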
